A study of Mus musculus with 4 samples.

Results

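The genes described here serve the entry of proteins into the endoplasmic reticulum (ER), their folding there and the cell's response when folding fails. They were chosen by gene symbol, with earlier results of these data known. The set took in the symbols that start with Pdia, Sec61, Sec62, Sec63, Sec23, Sec24, Ssr, Spcs, Dnajb or Dnajc, and 13 single genes from Hspa5 to Sdf2l1. Of 13840 genes with a probe of 1 symbol, 60 met this rule, with 62 of the array's 33012 probes. Of these, 47 genes with 49 probes had a value on all 4 arrays. These 49 were compared, among 13475 probes with a value on every array. Atf6 and the Spcs genes were not analysed here. The prefixes also caught J-domain proteins of the cytosol, nucleus and mitochondria, which are kept and described apart.

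Expression was measured in the stomach of chow-fed male mice on single-colour chemiluminescent arrays. The congenic group was B6.CAST-17, a homozygous strain that by its name carries CAST DNA of chromosome 17 on a B6 background. The wild-type group was the inbred strain C57BL/6J. Each strain had 2 arrays, each holding a pool of stomach RNA from 3 mice, so 6 animals per strain were studied, and all were food deprived for 4 h before death. The study's title names Glp1r, a gene of chromosome 17, whose probe (591309) had a value on 1 array only, wild-type pool 1, at 10.08. The arrays gave values for between 16320 and 16954 probes, with medians of the compared probes between 12.819 and 12.824. Values are log2 signals, with the base inferred from their range, and a level is read only against the same probe on other arrays. Each difference is the congenic mean minus the wild-type mean, in log2 units ± SE, from 1 limma fit of all 13475 probes with n = 2 pools per strain. The only error in its p-values is that among the pools, and the small number of arrays limits the precision.

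Proteins bound for secretion or for membranes enter the ER through the Sec61 channel. Chaperones such as BiP (Hspa5), the lectins calreticulin and calnexin, and disulfide isomerases fold them, and COPII vesicles carry the finished ones to the Golgi. When unfolded protein builds up, the sensors Ire1 (Ern1), Atf6 and Perk raise chaperone genes through Xbp1, Atf6 and Atf4. Much of that response acts through a promoter motif, the ER stress element, bound by NF-Y at its CCAAT end and by Atf6 or Xbp1 at its CCACG end. The stomach's pepsinogen-secreting chief cells hold a dense ER, as do acinar cells of the pancreas.

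The motif was searched on both strands of RefSeq promoter windows (assembly GRCm38.p6), which span 250 bases before to 50 after an annotated gene start. Of the 60 genes, 53 had 64 such windows. CCAAT, 9 bases of any kind and CCACG occurred in 7 of the 64 windows (10.9%) and in 39 of all 32851 windows (0.119%). The second form, ATTGG, 1 base and CCACG, was added after the first search, and occurred in 2 of the 64 (3.12%) and in 12 of all windows (0.0365%). CCACG alone was present in 39 of the 64 windows (60.9%) and in 32.8% of all windows. The 2 longer motifs did not coincide in any of these genes, and each holds the CCACG counted last. The sites are shown so that the values of these 9 genes can be read beside the letters matched. Genes of the response without a match in these windows include Atf4, Ddit3, Xbp1 and Dnajb9. Each is written from its first motif letter on the strand named, with the motif letters in capitals and the spacer in lower case.
Hspa5, chr2:34772025-34772043, plus strand: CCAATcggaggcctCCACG
Hsp90b1, chr10:86705638-86705656, minus strand: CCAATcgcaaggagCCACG
Hsp90b1, chr10:86705533-86705551, plus strand: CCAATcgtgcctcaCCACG
Calr, chr8:84847075-84847093, plus strand: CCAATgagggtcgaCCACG
Canx, chr11:50325800-50325818, minus strand: CCAATcaccacgctCCACG
Pdia6, chr12:17266491-17266509, plus strand: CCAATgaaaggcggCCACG
Creld2, chr15:88819520-88819538, minus strand: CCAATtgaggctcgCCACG
Dnajc3, chr14:118937827-118937845, plus strand: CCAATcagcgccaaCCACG
Herpud1, chr8:94386377-94386387, plus strand: ATTGGgCCACG
Dnajb11, chr16:22857852-22857862, plus strand: ATTGGcCCACG

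Upstream of the gene start, these sites ended between 41 and 193 bases before it, and the site of Dnajb11 lay just downstream of the start. Hsp90b1 held 2 sites, on opposite strands. A match to these letters is a description of the window and was not tested as a binding site. Whether CAST DNA differs at any of them was not examined, and none of the 60 genes lies on chromosome 17 (0 of 62 probes). The windows of Hspa5, Hsp90b1 and Canx follow in full, on the strand of the gene, with matched letters in capitals. They are given as the best known target of the response, the window with 2 sites, and the site-bearing gene with the largest strain difference.
Hspa5, chr2:34771840-34772139, plus strand: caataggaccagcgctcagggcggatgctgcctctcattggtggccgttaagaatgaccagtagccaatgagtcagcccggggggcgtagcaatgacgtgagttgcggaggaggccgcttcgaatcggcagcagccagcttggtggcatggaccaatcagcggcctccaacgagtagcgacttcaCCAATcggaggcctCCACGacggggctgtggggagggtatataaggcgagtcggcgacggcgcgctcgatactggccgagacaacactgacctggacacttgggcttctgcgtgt
Hsp90b1, chr10:86705395-86705694, minus strand: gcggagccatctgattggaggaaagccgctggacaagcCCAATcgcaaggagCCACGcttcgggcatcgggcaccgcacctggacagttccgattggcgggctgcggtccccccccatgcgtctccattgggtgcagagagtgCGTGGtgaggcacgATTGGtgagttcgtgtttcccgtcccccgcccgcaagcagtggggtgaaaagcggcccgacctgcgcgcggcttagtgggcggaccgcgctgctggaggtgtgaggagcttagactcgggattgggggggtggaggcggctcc
Canx, chr11:50325624-50325923, minus strand: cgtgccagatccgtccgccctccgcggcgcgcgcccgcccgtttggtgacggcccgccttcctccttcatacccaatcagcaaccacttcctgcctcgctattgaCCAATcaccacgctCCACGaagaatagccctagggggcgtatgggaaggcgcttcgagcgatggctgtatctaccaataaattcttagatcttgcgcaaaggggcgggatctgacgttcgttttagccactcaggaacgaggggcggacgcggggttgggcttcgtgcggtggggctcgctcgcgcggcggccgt

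None of the 49 probes differed between the strains after adjustment. The threshold was a limma adjusted p of 0.05, which 0.475% of all probes met (0.289% with higher and 0.186% with lower congenic values). Among the 49 the lowest limma adjusted p was 0.1879. An unadjusted p under 0.05 was reached by 5 of the 49 (10.2%), 3 of them higher and 2 lower, against 15.8% of all probes (7.12% higher and 8.66% lower). These 5 were Pdia4, Pdia5 and Sdf2l1 with higher values, and Sec61b and Dnajc15 with lower values, in congenic pools. The strains' pools did not overlap for 24 of the 49 (49.0%), 12 higher and 12 lower, against 49.4% of all probes (23.4% higher and 26.1% lower). Among the 35 probes of the ER roles they did not overlap for 18 (51.4%), 12 higher and 6 lower. Of these 35, 22 had positive differences (62.9%, against 49.6% of all probes). Among the 14 other J-domain probes they did not overlap for 6 (42.9%), all of them lower. Counted in both directions, the shares of the 49 lay below or near those of all probes. The median difference was 0.0095, against -0.002 over all probes, and the median size of a difference regardless of sign was 0.11 against 0.15.

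The intervals say how large a difference these arrays leave room for. For 39 of the 49 probes (79.6%) the 95% interval lay wholly within 0.5 log2 of 0, a 1.41-fold change, against 50.3% of all probes. For 46 of the 49 (93.9%) it lay within 1 log2, against 88.3% of all probes. The 3 others were Dnajb9, Dnajc1 and Dnajc18. Between the 2 pools of a strain the 49 probes differed by a median of 0.088, against 0.13 over all probes. The mean signal over the 49 lay between 14.55 and 14.61 on each array, while the medians of all compared probes were 12.82. The fit let variance follow mean level, and the part of signal level in these narrower spreads was not tested.

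**Figure D1:**
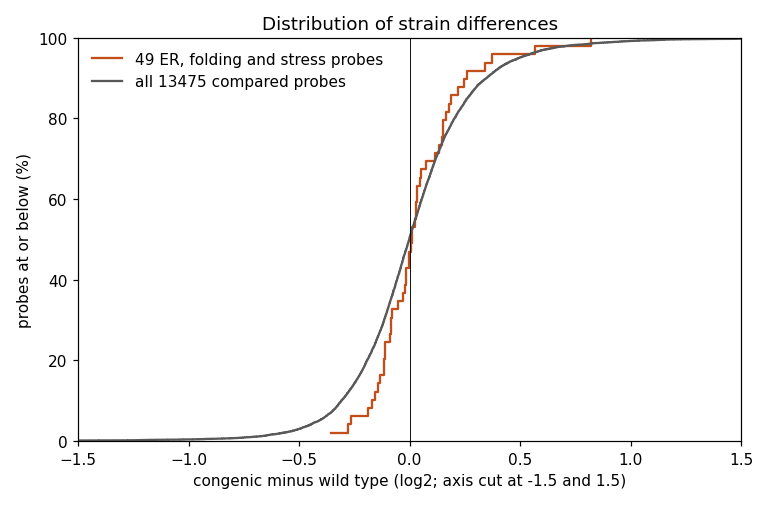
Cumulative share of probes (vertical axis, %) at or below each strain difference (horizontal axis, congenic minus wild type, log2), for the 49 ER, folding and stress probes and for all 13475 compared probes. Both curves cross 0 near the middle (medians 0.0095 and -0.002), and the curve of the 49 probes is the steeper one.

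**Figure D2:**
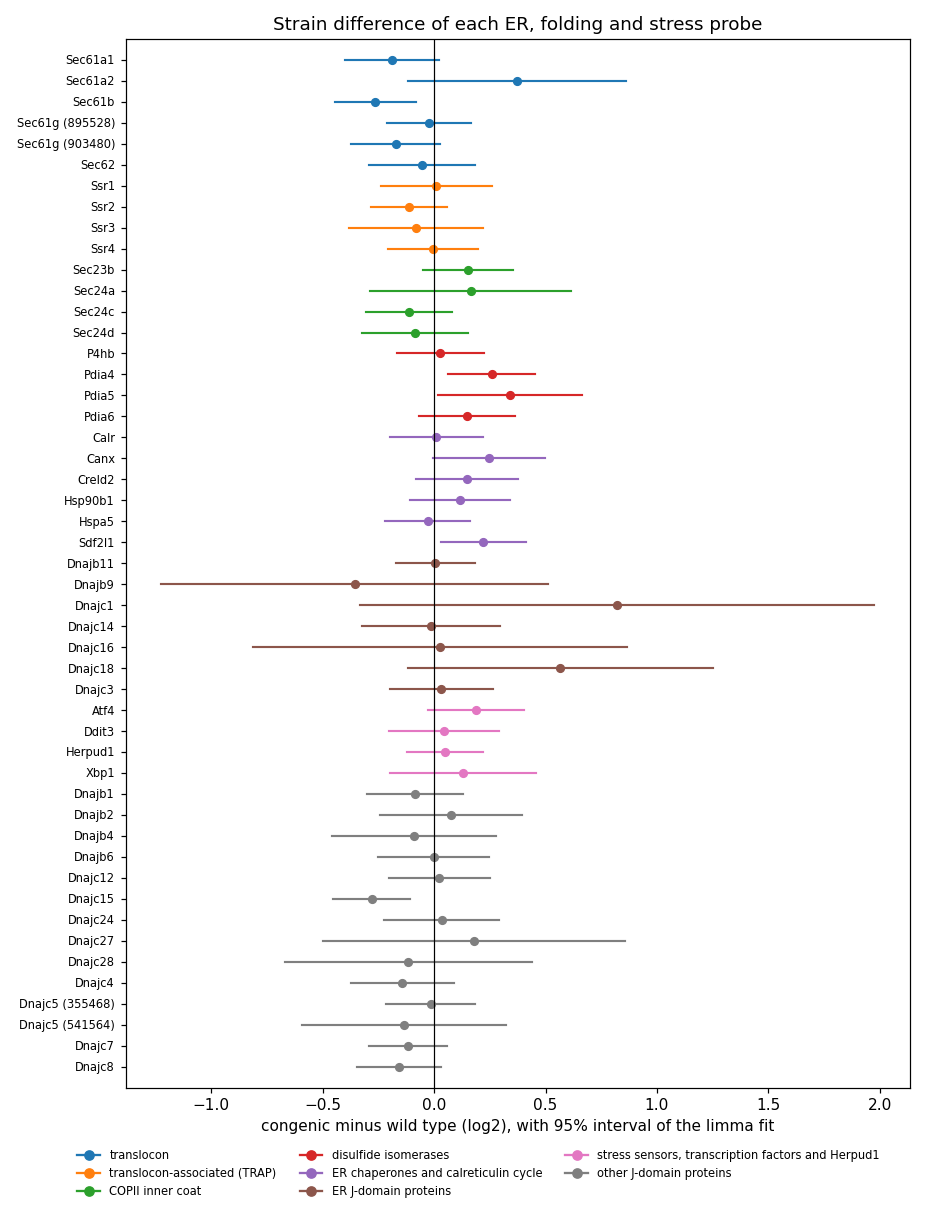
Difference of each of the 49 probes (points, congenic minus wild type, log2) with its 95% interval from the limma fit over all probes (lines), coloured by role. Most intervals cross 0, and the widest are those of Dnajc1, Dnajb9 and Dnajc16.

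The Sec61 channel is described first. Sec61a1, which forms the pore, had 13.83 and 13.86 in congenic pools, against 14.08 and 13.99 in wild-type pools. Sec61b, a small subunit of the channel, had 15.05 and 15.02 in congenic pools, against 15.34 and 15.26 in wild-type pools. For both, each congenic pool lay below each wild-type pool. The differences were -0.19 ± 0.086 for Sec61a1 (limma adjusted p = 0.3548) and -0.26 ± 0.074 for Sec61b (limma adjusted p = 0.2155). Sec61g, the third subunit, had 2 probes. Probe 903480 gave -0.17 ± 0.081 with separate pools, and probe 895528 gave -0.022 ± 0.077 with overlapping pools, so the 2 probes do not give one size of difference. Sec61a2, a paralogue of the pore subunit, went the other way, with 11.13 and 11.01 in congenic pools against 10.83 and 10.58 in wild-type pools (0.37 ± 0.20, limma adjusted p = 0.4184). Sec62, which helps proteins enter after their synthesis, overlapped between strains (-0.053 ± 0.097).

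Sec63, which with Sec62 recruits BiP to the channel, was blank in congenic pool 1. It had 12.97 in congenic pool 2, against 13.19 and 13.12 in wild-type pools, and a fit that allowed 1 blank gave -0.18 ± 0.13 (limma adjusted p = 0.5754) from 3 pools.

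The translocon-associated proteins Ssr1 to Ssr4 form a complex beside the channel that aids the entry of some proteins. Their differences lay between -0.11 (Ssr2) and 0.0097 (Ssr1), with a median of -0.042, and all 4 intervals lay within 0.5 log2 of 0. Ssr2 had 15.80 and 15.85 in congenic pools, against 15.95 and 15.93 in wild-type pools, and was the only Ssr gene whose pools did not overlap. Ssr4 had 18.46 and 18.57 in congenic pools, against 18.47 and 18.57 in wild-type pools, nearly the same pair of values in each strain.

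The disulfide isomerases form and rearrange the bonds between cysteines. All 4 measured genes had positive differences (against 49.6% of all probes), with a median of 0.20, and none passed. Pdia4 had 14.59 and 14.52 in congenic pools, against 14.27 and 14.32 in wild-type pools. Pdia5 had 14.09 and 14.45 in congenic pools, against 13.92 and 13.94 in wild-type pools. In each of these, and in Pdia6, both congenic pools lay above both wild-type pools. The difference was 0.26 ± 0.080 for Pdia4 (limma adjusted p = 0.2417), 0.34 ± 0.13 for Pdia5 (limma adjusted p = 0.3003) and 0.15 ± 0.088 for Pdia6 (limma adjusted p = 0.4513). Without congenic pool 2, the difference was 0.16 for Pdia5 and 0.059 for Pdia6. P4hb, the classical isomerase and also a subunit of collagen prolyl 4-hydroxylase, had 18.82 and 18.92 in congenic pools, against 18.86 and 18.82 in wild-type pools. Its pools overlapped, and the 95% interval ran from -0.17 to 0.22.

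Among the chaperones, Hspa5, which encodes BiP, the Hsp70 of the ER, had 18.00 and 18.10 in congenic pools, against 18.12 and 18.04 in wild-type pools. The pools overlapped, and the difference was -0.029 ± 0.078 with a 95% interval of -0.22 to 0.16 (limma adjusted p = 0.8788). Hsp90b1, the Hsp90 of the ER, had 14.73 and 14.72 in congenic pools, against 14.52 and 14.70 in wild-type pools. Its pools were separate by a narrow margin (0.12 ± 0.091), and the difference was 0.024 without wild-type pool 1. Sdf2l1, which works with BiP and Dnajb11, had 14.68 and 14.62 in congenic pools, against 14.45 and 14.41 in wild-type pools. Both congenic pools were the higher ones, with a difference of 0.22 ± 0.078 (limma adjusted p = 0.2741).

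The lectin chaperones hold glycoproteins until their sugars are trimmed. Canx, calnexin, had 17.70 and 17.90 in congenic pools, against 17.64 and 17.46 in wild-type pools. Every congenic value lay above every wild-type value, and the difference was 0.25 ± 0.10 (limma adjusted p = 0.3181). It was 0.15 without congenic pool 2 and 0.16 without wild-type pool 2. Calr, calreticulin, had 15.12 and 15.27 in congenic pools, against 15.22 and 15.15 in wild-type pools. These overlapped (0.0095 ± 0.085), with a 95% interval of -0.20 to 0.22. Creld2, a small ER protein induced by ER stress, had 14.25 and 14.10 in congenic pools, against 13.99 and 14.06 in wild-type pools (0.15 ± 0.093, limma adjusted p = 0.4798), and the difference was 0.071 without congenic pool 1.

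The stress arm was measured through its transcription factors and 1 target. Atf4 had 16.80 and 16.73 in congenic pools, against 16.67 and 16.49 in wild-type pools, with separate pools and a difference of 0.19 ± 0.088 (limma adjusted p = 0.3664). Without wild-type pool 2 the difference was 0.095. Ddit3, the pro-apoptotic factor CHOP that Atf4 induces, had 13.15 and 13.29 in congenic pools, against 13.18 and 13.17 in wild-type pools (0.046 ± 0.10). Xbp1 had 17.43 and 17.53 in congenic pools, against 17.54 and 17.16 in wild-type pools (0.13 ± 0.13). For Ddit3 and Xbp1 the strains overlapped. Xbp1 acts after its mRNA is spliced by Ire1, and whether its probe tells the spliced form apart was not examined. Herpud1, a membrane protein of ER-associated degradation, had 15.51 in both congenic pools, against 15.48 and 15.45 in wild-type pools (0.049 ± 0.069, limma adjusted p = 0.7513). Ern1, the gene of Ire1, had a value in congenic pool 2 only, at 9.71.

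Set side by side, the 9 genes whose windows hold either stress element had differences from -0.029 (Hspa5) to 0.25 (Canx), with a median of 0.049. Of these, 8 were positive (88.9%, against 49.6% of all probes) and 5 had pools that did not overlap (55.6%, against 49.4% of all probes). An unadjusted p under 0.05 was reached by 0 of the 9, against 15.8% of all probes. The 34 probes whose genes have a window without either element had a median of -0.0032. Among all other named genes of the array, 15 compared probes belong to genes with an element, with a median of 0.0022 and 9 positive differences. These are descriptions of small groups with no test between them.

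**Figure D3:**
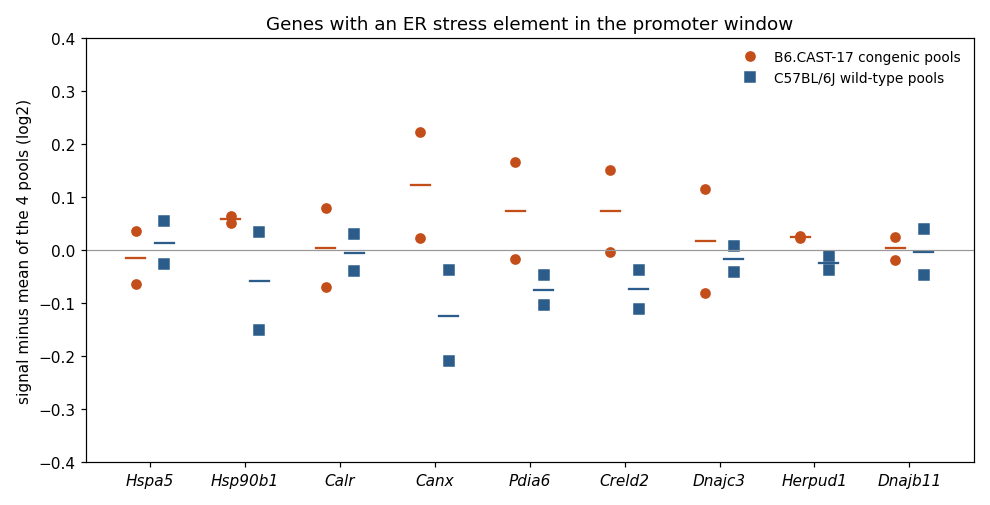
Signal of each pool minus the mean of the 4 pools (vertical axis, log2) for the 9 genes with an ER stress element or its second form, congenic pools to the left of wild-type pools, with horizontal bars at the strain means. All points lie within 0.3 log2 of the gene's mean, and Canx shows the widest separation of strain means (0.25).

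ER J-domain proteins, which stimulate BiP through their J domain or lie in the ER membrane, were the most scattered group, with a median SE of 0.28 against 0.093 over the 49 probes. Dnajb11 (0.0064 ± 0.073) and Dnajc3, which also restrains Perk (0.034 ± 0.094), had narrow intervals around 0. Dnajc18 had 10.25 and 10.07 in congenic pools, against 9.64 and 9.55 in wild-type pools, with separate pools and a difference of 0.57 ± 0.28 (limma adjusted p = 0.3838). Its 95% interval ran from -0.12 to 1.25, too wide to place the difference. Dnajc16 and Dnajc14 overlapped between strains.

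Dnajb9, a BiP cochaperone and a target of Xbp1, had 10.66 and 10.89 in congenic pools, against 10.62 and 11.65 in wild-type pools. Wild-type pool 2 alone stood above the other 3, and without it the sign changed (-0.36 over all pools, 0.16 without it). Dnajc1, an ER membrane cochaperone, had 15.72 and 15.80 in congenic pools, against 14.14 and 15.74 in wild-type pools. Here wild-type pool 1 alone stood below the other 3. The difference of 0.82 ± 0.47 (limma adjusted p = 0.4441) was 0.019 without wild-type pool 1 and 1.62 without wild-type pool 2. Leaving out pool 2 keeps the low array as the only wild-type pool, so its size follows from that array's value.

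The same array stood low for other genes of the pathway. These were found after the values were seen, by asking where 1 array lay over 0.5 log2 from each other while those lay within 0.5 of one another. Edem1, which draws misfolded glycoproteins into degradation, had 14.56 and 14.58 in congenic pools, against 13.00 and 14.55 in wild-type pools. Sar1b, the GTPase that starts a COPII coat, had 14.73 in both congenic pools, against 12.53 and 14.72 in wild-type pools. Srp14, an RNA-binding subunit of the signal recognition particle, had 14.99 in both congenic pools, against 13.85 and 15.02 in wild-type pools. In all of these, wild-type pool 2 lay beside the congenic pools. Without wild-type pool 1 the differences were 0.027 for Edem1, 0.0066 for Sar1b and -0.035 for Srp14. By the same criterion wild-type pool 1 stood apart on 240 of the 13475 probes (1.78%), 184 of them lower, congenic pool 2 on 240, wild-type pool 2 on 206 and congenic pool 1 on 117. The part of that array in these values was not tested.

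**Figure D4:**
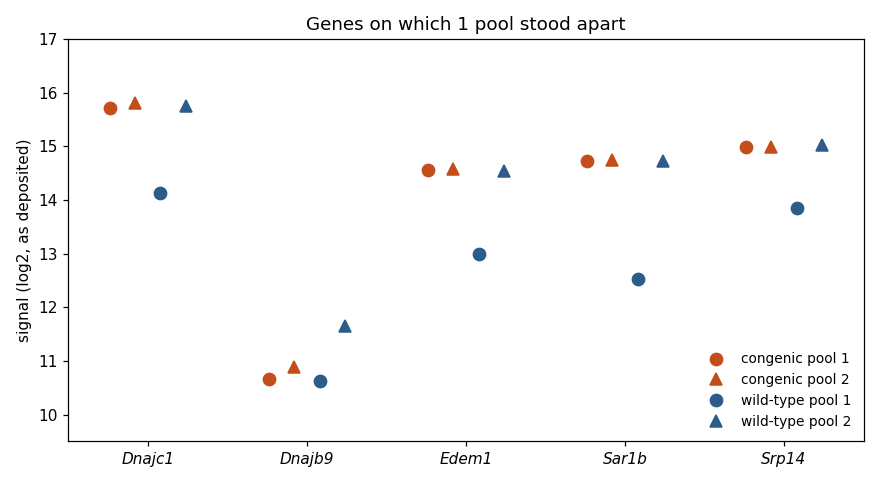
Signal on each array (vertical axis, log2) of the 5 genes on which 1 pool lay over 0.5 log2 from each of the others. Wild-type pool 1 is the low point for Dnajc1, Edem1, Sar1b and Srp14, and wild-type pool 2 is the high point for Dnajb9.

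COPII coat genes package cargo that leaves the ER. Sec23b, of the inner coat, had 14.20 and 14.14 in congenic pools, against 14.04 and 14.00 in wild-type pools, with congenic pools the higher (0.15 ± 0.082, limma adjusted p = 0.4235). Its partners Sec24c (-0.11 ± 0.078) and Sec24d (-0.086 ± 0.097), which select cargo, had separate pools in the other direction. Sec24a overlapped (0.16 ± 0.18).

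J-domain proteins outside the ER gave 14 probes, with a median of -0.087. Of these, 10 had negative and 4 positive differences (28.6% positive, against 49.6% of all probes). Dnajc15, of the mitochondrial inner membrane, had 16.17 and 16.23 in congenic pools, against 16.49 and 16.47 in wild-type pools. Both congenic pools were lower, and the difference of -0.28 ± 0.070 had the lowest p of the 49 probes (limma adjusted p = 0.1879). Dnajc8, a splicing-associated protein, had 14.39 and 14.44 in congenic pools, against 14.57 in both wild-type pools (-0.16 ± 0.076, limma adjusted p = 0.3799). Dnajc7, a cochaperone of Hsp70 and Hsp90, had 16.13 and 16.16 in congenic pools, against 16.22 and 16.30 in wild-type pools (-0.12 ± 0.072, limma adjusted p = 0.4661). Dnajc4 (-0.14 ± 0.094), Dnajb1, the heat-inducible partner of cytosolic Hsp70 (-0.086 ± 0.088), and Dnajb4 (-0.088 ± 0.15) had separate pools as well, with congenic pools lower. The 2 probes of Dnajc5, the cysteine string protein of secretory vesicles, gave -0.015 ± 0.081 and -0.13 ± 0.19 with overlapping pools. Dnajb2, Dnajb6, Dnajc12, Dnajc24, Dnajc27 and Dnajc28 also overlapped.

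Other genes of the pathway were followed in 6 lists. Limma called 0 of their 76 genes. An unadjusted p under 0.05 was reached by 14 (18.4%, 3 higher and 11 lower), against 15.8% of all probes (7.12% higher and 8.66% lower). Among 16 genes of stress signalling and its targets, 5 (31.2%) reached that p. All 5 had lower values in congenic pools, against 8.66% of all probes, and none passed. The list was not uniform, with 5 positive differences (31.2%, against 49.6% of all probes) and 11 negative ones. Pools were separate with lower congenic values for 6 genes and with higher congenic values for 2. The 2 higher genes were Chac1 (0.32 ± 0.13, limma adjusted p = 0.3181) and Atf3 (0.20 ± 0.097, limma adjusted p = 0.3796). Creb3l1, a membrane-bound transcription factor cleaved like Atf6, had 12.71 and 12.69 in congenic pools, against 13.09 and 13.19 in wild-type pools (-0.44 ± 0.10, limma adjusted p = 0.1778). Wfs1, the ER protein lost in Wolfram syndrome, had 11.98 and 11.99 in congenic pools, against 12.49 and 12.30 in wild-type pools (-0.41 ± 0.13, limma adjusted p = 0.2426). In both, congenic pools lay below wild-type pools.

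Atf5, a stress-induced relative of Atf4, gave -0.40 ± 0.13, and Ppp1r15a, which restores translation after stress, gave -0.36 ± 0.14. Atf6b, a relative of Atf6 and a gene of chromosome 17, had 13.70 and 13.69 in congenic pools, against 14.00 and 13.87 in wild-type pools (-0.24 ± 0.091, limma adjusted p = 0.3002). Its congenic pools were the lower ones. Whether CAST DNA differs at its probe was not examined, so lower signal and lower expression cannot be told apart there. Mcfd2, of glycoprotein export, was the other gene of these lists on chromosome 17, at -0.0055.

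The remaining lists had medians between -0.070 and 0.010. The share with an unadjusted p under 0.05 is given for each, beside 15.8% of all probes. For the signal recognition particle and its receptor, 2 of 7 genes (28.6%) had such a p. These were Srp54a, which binds the signal peptide (0.29 ± 0.068, limma adjusted p = 0.1776), and Srp19 (-0.32 ± 0.10). For ER-associated degradation these were 2 of 13 (15.4%), Ufd1, a cofactor of the extracting ATPase Vcp (-0.28 ± 0.084), and the lectin Os9 (0.26 ± 0.089). For other COPII and exit genes they were 3 of 11 (27.3%), Surf4, a cargo receptor (0.20 ± 0.074), Trappc3 (-0.33 ± 0.12) and Preb, the exchange factor of Sar1 (-0.23 ± 0.091). For N-glycosylation and glycan control the 1 of 10 (10.0%) was Lman1, a cargo receptor for glycoproteins (-0.27 ± 0.088). For oxidative folding and other chaperones the 1 of 19 (5.26%) was Erp29 (-0.26 ± 0.084).

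Stomach markers were present in every pool, among them the parietal cell proton pump gene Atp4a, between 19.51 and 19.77, and the chief cell gene Cblif, between 19.02 and 20.24. In whole stomach RNA, fewer cells of a type and less RNA per cell cannot be told apart. The following lists mark other cell types. Over 18 measured exocrine pancreas genes the mean level was 16.11 and 16.08 in congenic pools, against 14.66 and 14.77 in wild-type pools. Limma called 10 of the 18 higher, against 0.289% of all probes, among them Cela2a by 3.23 ± 0.081 (adjusted p = 0.00023). The list was not uniform, with 16 positive and 2 negative differences. The negative ones were Pnliprp2 at -0.22 with separate pools and Clps at -0.086 with overlapping pools. Clps is a gene of chromosome 17, and whether CAST DNA differs at its probe was not examined. Over the 5 chief cell genes the mean level was 17.21 and 17.25 in congenic pools, against 16.73 and 16.99 in wild-type pools. Limma called 0 of them, and 2 (40.0%) reached an unadjusted p under 0.05, both higher, against 7.12% of all probes. Of these, Rnase1 is on the pancreas list too. Cblif stood low in wild-type pool 1 (20.20 and 20.24 in congenic pools, against 19.02 and 20.14 in wild-type pools). Over the 8 liver genes the mean level was 13.69 and 13.68 in congenic pools, against 12.80 and 12.90 in wild-type pools. Of the 8, 2 passed with higher values, against 0.289% of all probes. The 35 probes of the ER roles had 14.82 in both congenic pools, against 14.74 and 14.76 in wild-type pools. Their pools were thus separate but close, and the pancreas list was further apart. The ER mean includes Dnajc1, low in wild-type pool 1 (14.14), and Dnajb9, high in wild-type pool 2 (11.65). The part of these values in the separation was not tested. Other lists were lower in congenic pools. Over the 9 skeletal muscle genes the mean level was 12.40 and 12.42 in congenic pools, against 13.33 and 13.50 in wild-type pools. Limma called 3 of the 9 lower, against 0.186% of all probes, and 9 of 9 differences were negative. Over the 11 enteroendocrine genes the mean level was 15.05 and 15.01 in congenic pools, against 15.31 and 15.36 in wild-type pools. Limma called 0 of the 11, and 4 (36.4%) reached an unadjusted p under 0.05, all lower, against 8.66% of all probes. Here 11 of 11 differences were negative, while 49.6% of all probes had positive differences. Plasma and B cells had 2 measured genes, which went opposite ways with separate pools, Jchain at 0.12 ± 0.10 and Sdc1 at -0.27 ± 0.11. The part of these cell types in the isomerase and chaperone values was not tested.

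**Figure D5:**
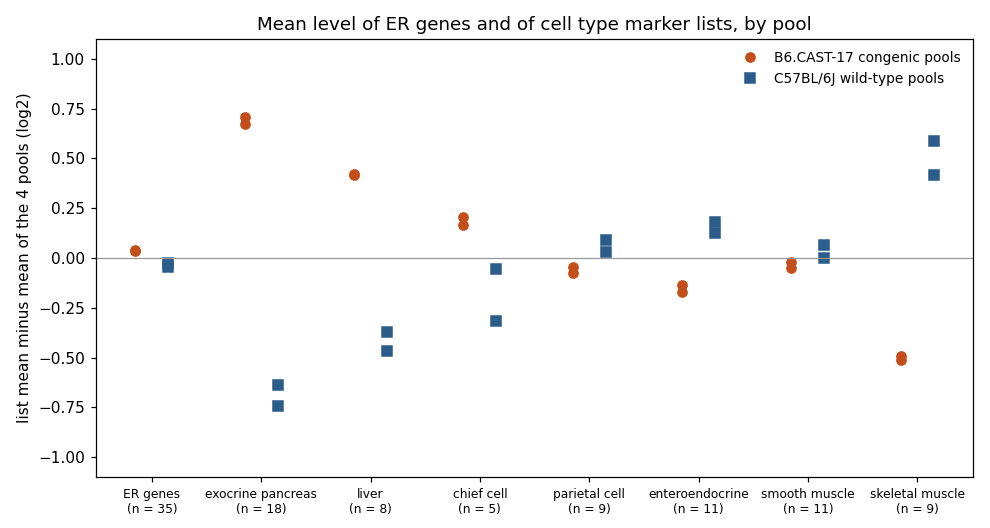
Mean log2 signal over each list in each pool, minus the mean of the 4 pools (vertical axis), for the 35 ER probes and 7 marker lists, congenic pools to the left of wild-type pools. The ER genes lie within 0.1 log2 of 0, while the exocrine pancreas list lies above 0 in congenic pools and below it in wild-type pools, and the skeletal muscle list the reverse.

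The remaining 13 probes of the rule had blanks. A blank was not read as an absent transcript, since the rule behind it is not given in the sources used here. No value was given on any array for 8 of the 62 (12.9%), Sec24b, Dnajb7, Dnajb13, Dnajc5b, Dnajc5g, Dnajc6, Dnajc9 and Dnajc11, against 37.2% of all probes. Besides Ern1, 3 genes had 1 value each, Dnajb3 (12.07) and Dnajb8 (9.49) in congenic pool 2 and Dnajb5 (10.37) in wild-type pool 2. A value on all 4 arrays was given for 79.0% of the 62, against 40.8% of all probes.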

How the data were processed

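Stomach RNA (1 microgram per pool) was labelled with digoxigenin and read by chemiluminescence, per the labels' protocols. The authors deposited 1 log2 value per probe and array. For normalization, log base and blanks, the method was not given in the sources used here. The base was inferred from the range (6.73 to 21.2). Probes were named through the platform's annotation, where 14411 had 1 symbol. The members and lists were chosen with earlier results of these data known.

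The strain effect of each probe was fitted by lmFit and eBayes (limma 3.58.1, R 4.3.3), letting variance follow mean level, on 2 residual degrees of freedom plus 3.97 from the prior. Tests were two-sided. The Benjamini-Hochberg step took in all 13475 probes. The fit was also run on simulated data with normal errors and variances shuffled over probes. That setting differs from these arrays, and no result here rests on it. Of 33012 probes, those with a blank on any array were left out. No filter on low values, pseudocount or further normalization was used. Members were named if they passed, were among the 4 lowest p of a role, or were listed singly, and list genes if they passed or were among the 3 lowest p. Members described only to account for the whole set, the genes on which 1 array stood apart, and marker and list genes beyond the 3 lowest p were chosen after their values were seen. Pools 1 of both strains share a number in the titles, but their deviations correlated at -0.0643 over probes and the labels state no shared origin, so the fit was unpaired. Promoters came from RefSeq. Protein features were not analysed here. Figures used matplotlib 3.10.9.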

Additional observations from a re-analysis of the deposited data

How the results depend on the processing

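Precision is limited by the number of arrays, and signal over background is unknown here. With the replicate block, 0 of the 49 probes passed and 5 had an unadjusted p under 0.05, as in the unpaired fit, while the count over all probes was 35 against 64. The count of members passing stayed 0 under quantile normalization, median centring, leaving out dim probes, no variance trend (20 over all probes) and 1 blank allowed. Leaving out a pool leaves 1 pool in that strain, assumed to vary like the pair in the other strain. It gave 0 to 1 passing, the 1 being Dnajc1 without wild-type pool 2, 3 to 5 with an unadjusted p under 0.05 (3 without congenic pool 2), and 36 to 37 with separate pools, since a lone pool separates more easily. Over all probes it gave between 15 and 168 calls. The 9 genes with a stress element kept a positive median in each of these fits. Among these genes, Hspa5, Calr and Dnajc3 changed sign on leaving out a pool. The counts for ER-associated degradation (Edem1), the signal recognition particle (Srp14) and COPII exit genes (Sar1b) were 0 to 1, with the 1 in each without wild-type pool 2. These genes and Dnajc1 were singled out for a low wild-type pool 1, which is then the only wild-type pool, so these calls support nothing. The median over the 49 ranged from -0.014 to 0.038 on leaving out a pool, and was 0.029 over the 35 ER probes and 0.0097 with 1 probe per gene.

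Of 34 named members, 24 kept their direction and stayed unpassed under every alternative, and 9 changed sign on leaving out a pool and under no other alternative. Of the 24, 14 became over 1.5 times smaller without some pool. Beside the genes given with such a value in the results, the smallest values were 0.25 (Sec61a2), -0.094 (Sec61g), -0.0080 (Ssr3), 0.044 (Sec24a), -0.063 (Sec24c), -0.044 (Sec24d), -0.040 (Dnajc4) and -0.077 (Dnajc7). The ranges of those that changed sign were -0.12 to 0.14 (Ssr1), -0.058 to 0.050 (Ssr4), -0.024 to 0.082 (P4hb), -0.065 to 0.084 (Calr), -0.078 to 0.021 (Hspa5), -0.87 to 0.16 (Dnajb9), -0.065 to 0.13 (Dnajc3), -0.023 to 0.11 (Ddit3) and -0.062 to 0.33 (Xbp1). Srp14 ranged from -0.035 to 1.14. The cause was not tested.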
